A study of Mus musculus with 2 samples.

Results

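Among the genes that B cells use once antigen has activated them, 6 were examined in the DNase I hypersensitive sites (DHS) of splenic B cells: Prdm1, Xbp1, Bcl6, Sdc1, S1pr2 and Mzb1. The genes were chosen by name, with earlier results of these data known, and stand for the germinal centre reaction and the plasma cell. A DHS was assigned to a gene when it overlapped the gene body or the 50 kb on either side of it in the GENCODE M1 annotation of mouse build mm9. The 6 genes are part of 22350 protein-coding genes on chromosomes 1 to 19 and X, and their windows held 42 of the 47542 DHS in the list. The comparison asks which of these later-stage genes carried accessible chromatin in B cells that had not been irradiated.

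The cells came from the spleen of 8 weeks old C57/Bl6 mice with both copies of Trp53 intact (Trp53+/+), handled as mock controls of an irradiation experiment. They were selected on magnetic beads for B220, a surface protein of B cells, and freed of apoptotic cells. Nuclei were digested with DNase I, which cuts accessible DNA more readily than nucleosomal DNA, and the short fragments were sequenced. The series holds 1 DNaseI library and 1 input library, so that no value below has a replicate check and no p-value is given. B220 selection does not separate follicular, marginal zone or germinal centre B cells, and the number of mice behind the library is not given in the sources used here.

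As background, an activated B cell may enter a germinal centre, where it mutates its antibody genes and is selected, or become a plasma cell that secretes antibody. Bcl6 encodes the transcriptional repressor needed for the germinal centre, and Prdm1 encodes Blimp-1, a repressor that ends the B cell programme and drives plasma cell formation; each of the pair represses the other. Xbp1 encodes a transcription factor of the unfolded protein response that expands the secretory machinery. Sdc1 encodes syndecan-1 (CD138), the surface proteoglycan by which plasma cells are sorted, S1pr2 a sphingosine-1-phosphate receptor that keeps germinal centre B cells in place, and Mzb1 a chaperone of the endoplasmic reticulum abundant in marginal zone B cells and plasma cells.

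The score of a DHS is the value deposited with each peak. Its scale is not stated, and it was used only for ranking within the list, where it ranged from 5.05 to 619 with a median of 32.65. Depth is unknown, so a place without a DHS is one where none was called. The label of the cells was checked on marker genes, for which the share over all protein-coding genes is 57.0%. A DHS lay within 5 kb upstream to 2 kb downstream of a transcription start site (TSS), called here a promoter DHS, at 6 of 6 B cell markers (Cd79a, Cd79b, Ms4a1, Cd22 and Blnk among them), with scores from 84.0 upward. None of 6 T cell markers had one (exact binomial interval 0 to 45.9%), including Cd3e, Cd4 and Cd8a. Of 6 myeloid markers 2 had one, Cd14 at 51.0 and Itgam at 18.2, and of 6 NK cell markers 2 had one, Klrb1c at 26.0 and Prf1 at 16.1. Any part of other cells in the results below was not tested.

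The sequence just upstream of a TSS is shown for 5 of the 6 genes, with none for Mzb1, since it is the DNA that lay open in these cells. Each line gives the 250 bases before the TSS, 5′ to 3′ on the strand of the gene, from the mm9 assembly. Capitals mark 3 of the words searched on both strands, namely the E-box CAGGTG in either orientation, the STAT/Bcl6 word TTCNNNGAA and the cyclic AMP response element (CRE) TGACGTCA. For Prdm1 the stretch before the coding TSS is chr10:44178555-44178804 and the one before the upstream TSS chr10:44248308-44248557, both on the minus strand. The others are Bcl6 at chr16:23988939-23989188 on the minus strand, Xbp1 at chr11:5420412-5420661 on the plus strand, Sdc1 at chr12:8777879-8778128 on the plus strand and S1pr2 at chr9:20781238-20781487 on the minus strand. All 250 bases lay inside a DHS except at Xbp1, where 173 did.
Prdm1, coding TSS: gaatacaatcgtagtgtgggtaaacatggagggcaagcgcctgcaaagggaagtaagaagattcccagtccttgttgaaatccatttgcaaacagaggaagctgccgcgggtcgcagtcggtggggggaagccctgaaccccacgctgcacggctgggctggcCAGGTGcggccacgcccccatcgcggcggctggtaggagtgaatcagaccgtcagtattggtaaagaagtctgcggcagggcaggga
Prdm1, upstream TSS: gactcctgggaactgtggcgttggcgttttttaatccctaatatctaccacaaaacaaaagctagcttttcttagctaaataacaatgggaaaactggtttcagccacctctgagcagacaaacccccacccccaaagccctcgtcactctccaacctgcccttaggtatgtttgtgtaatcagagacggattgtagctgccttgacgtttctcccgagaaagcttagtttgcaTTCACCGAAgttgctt
Bcl6: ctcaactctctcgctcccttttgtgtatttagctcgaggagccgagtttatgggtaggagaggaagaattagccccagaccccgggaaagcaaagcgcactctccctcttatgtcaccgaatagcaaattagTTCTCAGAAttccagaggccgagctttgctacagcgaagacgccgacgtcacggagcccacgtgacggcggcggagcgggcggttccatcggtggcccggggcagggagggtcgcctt
Xbp1: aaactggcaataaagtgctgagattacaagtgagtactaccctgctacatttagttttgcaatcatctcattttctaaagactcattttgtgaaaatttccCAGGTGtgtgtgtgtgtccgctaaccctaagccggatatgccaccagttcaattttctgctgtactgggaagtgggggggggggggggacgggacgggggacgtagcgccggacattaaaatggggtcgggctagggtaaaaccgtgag
Sdc1: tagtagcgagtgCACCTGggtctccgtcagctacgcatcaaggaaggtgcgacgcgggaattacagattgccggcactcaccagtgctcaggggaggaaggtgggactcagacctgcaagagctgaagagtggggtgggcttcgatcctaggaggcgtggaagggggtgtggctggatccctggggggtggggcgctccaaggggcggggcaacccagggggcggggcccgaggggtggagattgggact
S1pr2: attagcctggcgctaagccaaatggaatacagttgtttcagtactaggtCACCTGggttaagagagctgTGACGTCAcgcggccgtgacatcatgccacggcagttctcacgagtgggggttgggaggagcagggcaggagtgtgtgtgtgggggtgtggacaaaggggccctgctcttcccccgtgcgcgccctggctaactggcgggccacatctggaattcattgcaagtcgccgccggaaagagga

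A promoter DHS was present at 6 of 6 genes (100%, exact binomial 95% interval 54.1 to 100%), beside 57.0% of all protein-coding genes. A DHS covered a TSS itself at 6 of 6 genes, beside 46.6%. At least 1 DHS lay in the gene span of 6 of 6, beside 57.9%. At least 1 lay in the window of 6 of 6, beside 77.0%. A promoter DHS at or above the median score of the list was found at 6 of 6, beside 50.3%. The interval covers counting error only, and with genes chosen by name it is no test against the shares of all genes. Of the 18 annotated TSSs of the 6 genes, 17 lay inside a DHS, beside 40.1% of the distinct TSSs of all protein-coding genes. The 6 TSSs of Xbp1 and the 5 of Sdc1 share 1 DHS each, and the exception was the start of a retained-intron transcript inside Bcl6.

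**Figure D1:**
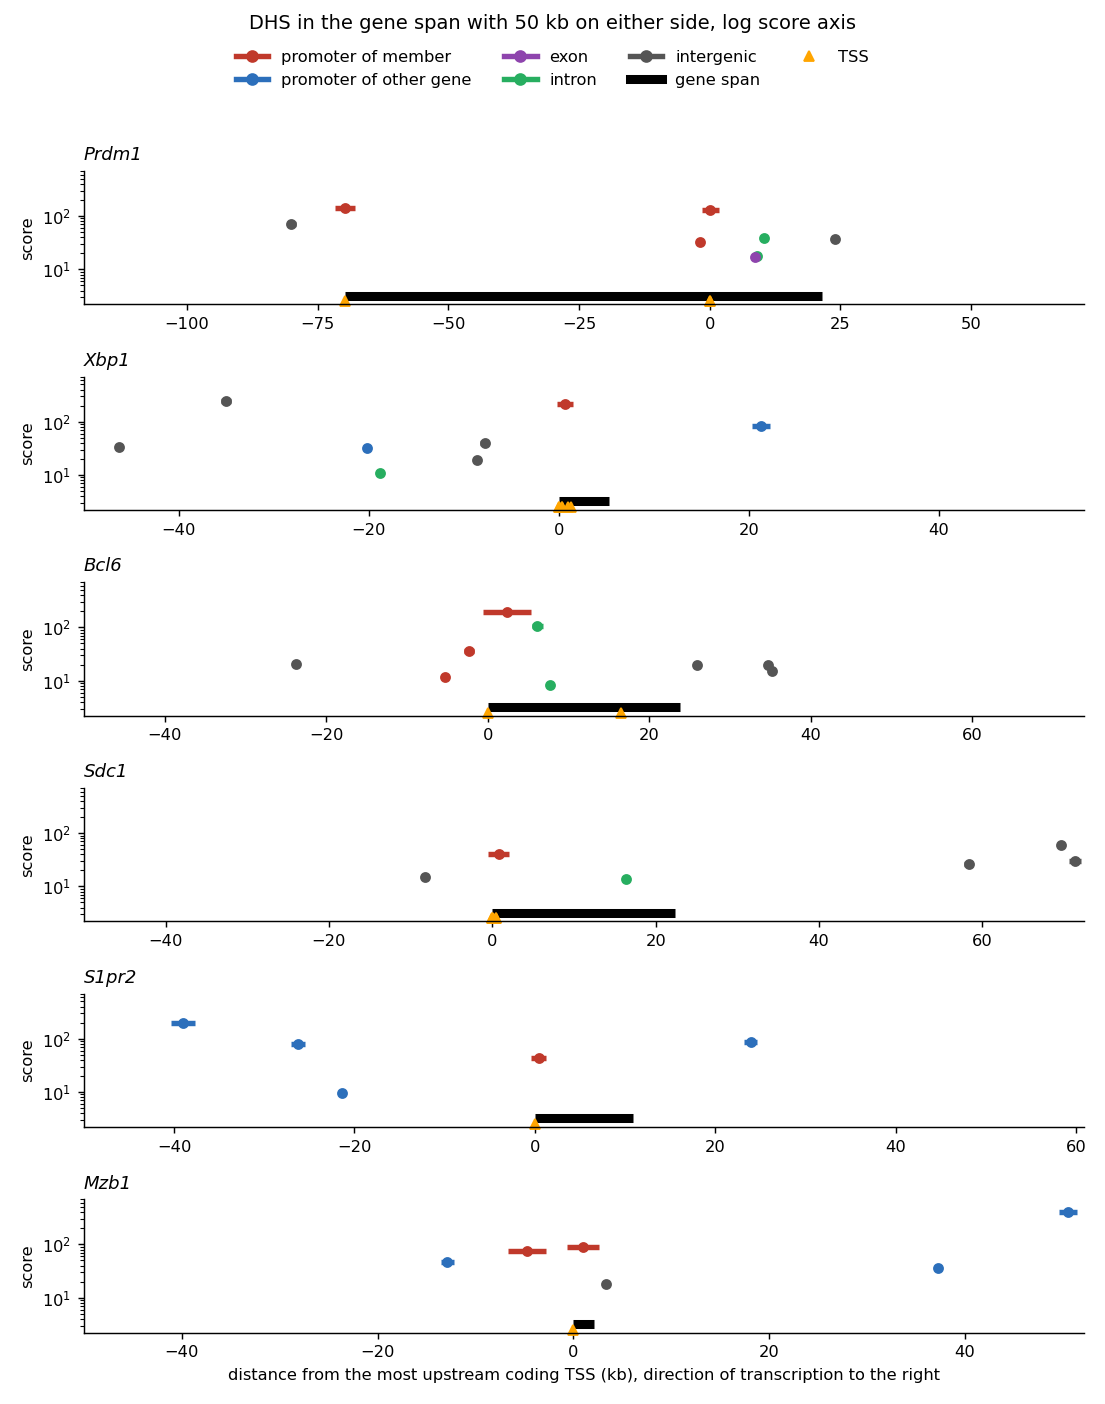
DHS in the windows of the 6 genes. The horizontal axis is the distance in kb from the most upstream coding TSS, with transcription running to the right and a scale of its own in each panel, and the vertical axis is the score on a log scale. Points mark DHS centres and horizontal lines their width, coloured by what they overlap, black bars are gene spans and triangles annotated TSSs. Each gene has a DHS on its TSS, from a score of 41.0 at Sdc1 to 217 at Xbp1, and Prdm1 has 2 such sites at opposite parts of its span.

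Bcl6, the repressor of the germinal centre programme, had the widest DHS on a TSS among the 6 genes. The gene lies at chr16:23965138-23988938 on the minus strand. Its DHS (chr16:23983586-23989497) was 5912 bp wide with a score of 192, and ran from 559 bp upstream of the TSS through exon 1 to 5352 bp inside the gene, in intron 1. Only a small part of the 10414 protein-coding genes with a DHS on a TSS had a wider one, since this width stood at percentile 99.88. A second DHS of intron 1 (chr16:23982132-23983490) began 95 bp further on and scored 106, the highest of the intron DHS in the 6 windows. The remaining sites of Bcl6 scored from 8.49 to 36.3. Another in intron 1 scored 8.49, and 2 in the promoter region, centred 2285 and 5257 bp upstream of the TSS, scored 36.3 and 11.8. The 4 intergenic sites, 1 upstream and 3 beyond the 3′ end, scored 15.3 to 20.3. Of the 9 DHS in the window, 3 reached the median score of the list.

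Prdm1, which encodes Blimp-1, had DHS on 2 separate TSSs. The gene spans chr10:44156983-44248307 on the minus strand. The DHS on the coding TSS (chr10:44176845-44180032) was 3188 bp wide with a score of 129. A second (chr10:44246426-44250179) lay on a TSS 69753 bp further upstream, annotated for a processed transcript without coding sequence, and was 3754 bp wide with a score of 142. Both were wider than the upper quartile of 1858 bp for DHS on a TSS. The 65766 bp between the last DHS near the coding TSS and the upstream site held no DHS. Beyond the upstream site, 10275 bp before that TSS, an intergenic DHS scored 71.2.

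Inside the coding part of Prdm1, 3 smaller DHS clustered around exon 4. One of intron 4 (chr10:44167614-44168816) scored 38.0, a second of intron 4 scored 18.0, and one on exon 4 (chr10:44169693-44170067) scored 17.0. A DHS centred 1835 bp upstream of the coding TSS scored 32.5 and was separated by 86 bp from the one on the TSS. The last of the 8 DHS was intergenic, downstream of the gene, with a score of 36.5. Prdm1 had no other protein-coding gene in its window. For all 8 DHS, the nearest TSS of any protein-coding gene was a Prdm1 TSS, when its non-coding upstream start is counted.

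Xbp1, the transcription factor of the unfolded protein response, had the highest promoter score of the 6 genes and the narrowest DHS on a TSS. The gene lies at chr11:5420662-5425896 on the plus strand. Its single promoter DHS (chr11:5420489-5422186) scored 217 at a width of 1698 bp, reached from 173 bp upstream of the most upstream TSS to 1524 bp downstream, and held all 6 annotated TSSs with exons 1 and 2. Within its decile of width, that score stood at percentile 94.1. The DHS with the top score of the window was not the promoter but an intergenic site centred 35050 bp upstream of the TSS (chr11:5385072-5386153), with a score of 250 at a width of 1082 bp. It stood at percentile 98.2 of the list by score and at 98.8 within its decile of width, and its nearest protein-coding TSS was that of Xbp1.

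The sequences at Xbp1 that stand out are the 30 bases around an ER stress response element (ERSE) word inside the promoter DHS (chr11:5420904-5420933) and the 300 bases at the centre of the site 35 kb upstream (chr11:5385463-5385762), both on the plus strand of mm9. In the first, capitals mark the ERSE word, CCAAT and CCACG set 9 bases apart, which lay downstream of the 2 most upstream of the 6 annotated TSSs, ending 265 and 248 bases after them, and upstream of the other 4, the nearest 43 bases further on. It was found in 0.0674% of all DHS searched whole. It lies outside the promoter stretch searched below, from 250 bases before to 50 bases after the most upstream coding TSS, where 0.103% of all promoters and 0 of the 6 hold the word. In the second, capitals mark the E-box. That sequence also holds a run of 25 A, and how reads of such low-complexity DNA were placed in this library was not tested.
Xbp1, ERSE word: accggCCAATCGCGGACGGCCACGacccta
Xbp1, upstream site: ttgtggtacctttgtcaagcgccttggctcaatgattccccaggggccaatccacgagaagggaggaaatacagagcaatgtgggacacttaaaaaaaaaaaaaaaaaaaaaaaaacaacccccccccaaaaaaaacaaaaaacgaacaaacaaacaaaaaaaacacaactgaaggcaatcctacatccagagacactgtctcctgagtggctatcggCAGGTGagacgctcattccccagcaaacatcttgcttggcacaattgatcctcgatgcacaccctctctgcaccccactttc

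The other 6 DHS in the window of Xbp1 had scores from 11.0 to 83.2. The 83.2 belonged to the promoter of Ccdc117, the next gene downstream. A DHS of 32.8 lay at the promoters of the predicted genes Gm11962 and Gm11963, and one of 11.0 in an intron of Gm11963. The intergenic sites at 46288, 8629 and 7808 bp upstream of the TSS scored 33.5, 19.4 and 39.7.

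Sdc1, the plasma cell marker CD138, had the lowest promoter score of the 6 genes. It lies at chr12:8778129-8800521 on the plus strand. One DHS (chr12:8777632-8780199) covered its 5 annotated TSSs with a score of 41.0 over 2568 bp, a width at percentile 92.6 of the genes with a DHS on a TSS and a score at percentile 13.1. The same DHS holds the TSS of the lincRNA Gm4755, 142 bp away, and signal from the start sites of both genes cannot be told apart. In intron 1 a DHS scored 13.7, and 8226 bp upstream of the TSS an intergenic one scored 15.3. The strongest DHS of the window was an intergenic site 69133 bp downstream of its nearest TSS, with a score of 59.2, accompanied by 2 others of 26.0 and 30.2 at 57861 and 70836 bp.

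S1pr2, the receptor of germinal centre B cells, had a single DHS of its own. It lies at chr9:20770396-20781237 on the minus strand. The DHS on its TSS (chr9:20779950-20781696) was 1747 bp wide with a score of 44.0, at percentile 14.7 of genes with a DHS on a TSS, and reached from 459 bp upstream to 1287 bp downstream. The other 4 DHS of the window lay at promoters of neighbouring genes, at Dnmt1 with 88.2, at Mrpl4 with 79.2 and 9.60, and at Icam1 with 200.4. By nearest protein-coding TSS, 1 of the 5 DHS belonged to S1pr2. In these cells the promoters of Dnmt1, a maintenance DNA methyltransferase, and Icam1, an adhesion molecule, had higher scores than that of S1pr2.

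Mzb1, the chaperone, is annotated under the older symbol 2010001M09Rik at chr18:35806920-35809021 on the minus strand, and was matched through its RefSeq synonym. One DHS of 3256 bp (chr18:35806419-35809674) held the whole gene, with exons 1 to 4 and 653 bp upstream of the TSS, and scored 87.8. A second and wider DHS, 3925 bp with a score of 74.1, overlapped the far end of the 5 kb upstream of the TSS and reached beyond it, at chr18:35811817-35815741. Its centre was 1062 bp from the TSS of the neighbour Gm1614, so that it counts at both promoters. Of the other 4 sites, 3 were promoter DHS of other genes, at Paip2 with 409.5 and 36.5 and at Spata24 with 45.8, and the last was an intergenic site of 18.4 located 3280 bp from the Mzb1 TSS. The Paip2 site had the top score of all 6 windows, at percentile 99.8 of the list, and 2 of the 6 DHS had the Mzb1 TSS as the nearest TSS of a protein-coding gene.

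Width and score ranked the 6 genes differently. Over the 10414 protein-coding genes with a DHS on a TSS, the widest such DHS had a median of 1453.5 bp with quartiles of 1069 and 1858 bp, and the highest score a median of 103 with quartiles of 64.5 and 154. The median width of the 6 genes was 2912 bp. Bcl6, Prdm1, Mzb1 and Sdc1 lay above the upper quartile of width, 4 of 6 genes beside 25.0% of all, which that quartile fixes. S1pr2 with 1747 bp and Xbp1 with 1698 bp lay between the median and the upper quartile. By score, Xbp1 and Bcl6 were above the upper quartile, Prdm1 and Mzb1 were between the quartiles, and S1pr2 and Sdc1 were below the lower one. Width and score went together across genes (Spearman rho 0.522, a description over genes that share 1 library). Compared only with DHS of the same width decile, the scores stood at percentile 94.1 for Xbp1, 78.0 for Bcl6, 59.7 and 53.5 for the 2 Prdm1 sites, 30.6 for Mzb1, 7.82 for S1pr2 and 6.63 for Sdc1. The DHS of Sdc1 and S1pr2 thus scored low within their width decile, and that of Xbp1 high within its own. S1pr2 lay at the narrow end of the widest decile, which also holds Bcl6 (width percentiles 90.4 and 99.96). Xbp1, at width percentile 89.5, was ranked in the decile below, so these percentiles do not compare the genes at equal width.

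**Figure D2:**
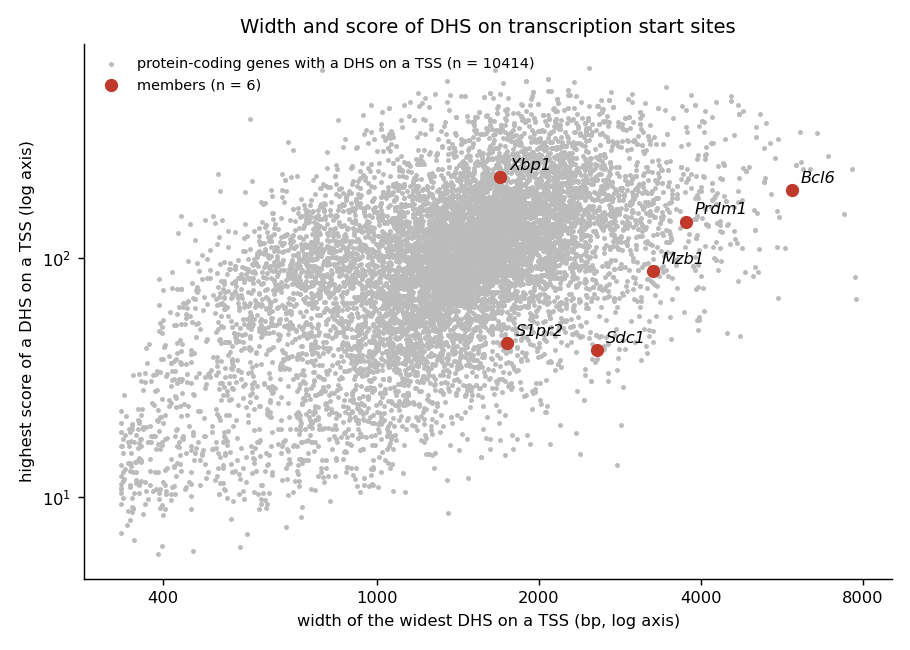
Width in bp of the widest DHS on a TSS (horizontal, log axis) against the highest score of a DHS on a TSS (vertical, log axis) for 10414 protein-coding genes, in grey, and the 6 genes, in red. Bcl6 lies at the wide end with 5912 bp, Xbp1 near the middle of the widths with a score of 217, and Sdc1 and S1pr2 below the lower quartile of the scores with 41.0 and 44.0.

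CpG content divided the promoters in another way. CpG-rich here means that the 1000 bp centred on a TSS held 55% GC or more, with CpG dinucleotides at 0.6 or more of the number that its base composition predicts. Over all protein-coding genes, a promoter DHS was present at 85.5% of those with a CpG-rich TSS and at 38.9% of those without one. At their most upstream coding TSS, Xbp1 (55.9%, ratio 0.795) and Sdc1 (66.1%, ratio 0.659) met both limits, 2 of 6. Among all protein-coding genes, 8698 of 22350 did so. Bcl6 (54.6%, ratio 0.970) and Prdm1 (52.3%, ratio 0.879) missed the limit on GC content, Bcl6 narrowly. S1pr2 (60.4%, ratio 0.562) and Mzb1 (55.2%, ratio 0.374) missed the one on CpG ratio. The GC content around the upstream TSS of Prdm1 was 45.3%. All 4 genes that did not meet the limits at that TSS carried a promoter DHS, and the low scores of Sdc1 and S1pr2 fell on 1 gene of each kind.

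The windows of the 6 genes held 5 to 9 DHS with a median of 7, where the median protein-coding gene had 5 and the quartiles were 1 and 9. Bcl6 had 9, Prdm1 and Xbp1 had 8, Sdc1 and Mzb1 had 6 and S1pr2 had 5. Since long genes have long windows, density is also given. It was 7.60 DHS per 100 kb at Xbp1, 7.27 at Bcl6, 5.88 at Mzb1, 4.90 at Sdc1, 4.51 at S1pr2 and 4.18 at Prdm1, beside 3.38 (median) and 6.91 (upper quartile) over all genes. The share of the window inside DHS was 11.3% at Mzb1 and 5.74% at Sdc1, the ends of the range, with 3.06% as the median of all genes and 6.64% as their upper quartile. All 6 genes were above the median in density and in covered share. Xbp1 and Bcl6 were above the upper quartile in density, and Mzb1, Bcl6, Xbp1 and S1pr2 in covered share. These values include DHS at promoters of other genes, 4 of 5 at S1pr2, 3 of 6 at Mzb1 and 2 of 8 at Xbp1. At S1pr2, its own DHS made up 1747 of the 7805 covered bases, so its covered share came mostly from neighbouring genes.

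**Figure D3:**
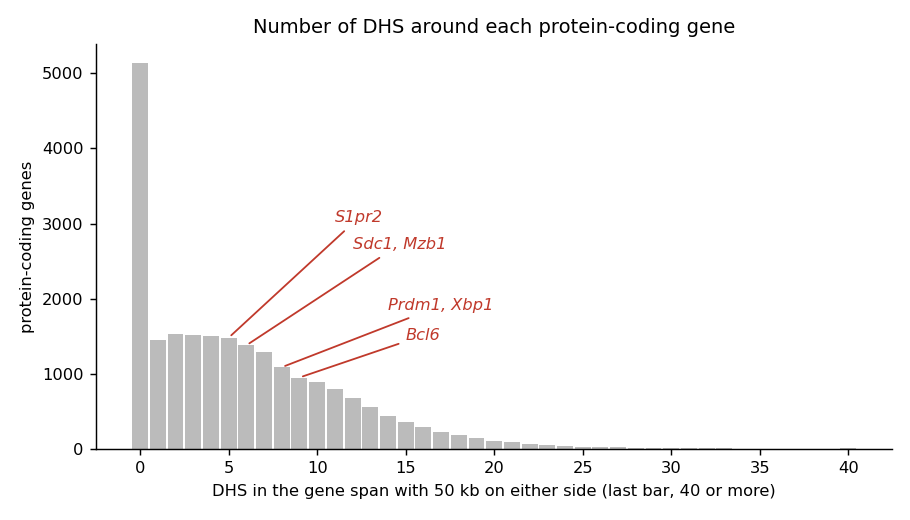
Number of protein-coding genes (vertical) by the number of DHS in the gene span with 50 kb on either side (horizontal), with the last bar holding genes with 40 or more. The 6 genes are marked at 5 to 9 DHS, in the middle of the distribution and not in its tail.

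Of the 42 DHS, 11 (26.2%) were promoter DHS of the 6 genes themselves and 9 (21.4%) lay at promoters of other genes. The remaining ones were 15 intergenic sites (35.7%), 6 in introns (14.3%) and 1 on an exon. Promoters of any gene thus made up 47.6% of the 42 and 47.5% of the whole list, intergenic sites 25.7% of the list and introns 21.7%. Median scores were 74.1 for own promoters, 79.2 for promoters of other genes, 26.0 for intergenic sites and 15.9 for introns. Over the whole list the medians were 53.3 for promoters, 25.3 for intergenic sites and 22.4 for introns, so that distal sites were lower there too. The intergenic site of Xbp1 (250) and the intron 1 site of Bcl6 (106) were the highest of their classes in the windows. The nearest DHS just beyond the 50 kb limit was at 50.6 kb from Sdc1, with a score of 56.4, followed by one at 52.3 kb from S1pr2 with 144, while the outermost inside the limit included the Paip2 promoter in the window of Mzb1.

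Further genes linked to the same stages were taken from lists of known genes, drawn up with earlier results of these data known. Neither list was limited to genes used only at those stages, so a promoter DHS there need not mark a later-stage gene. Of 20 germinal centre genes, 19 had a promoter DHS (95%, exact binomial interval 75.1 to 99.9%), beside the 57.0% of all protein-coding genes, and 16 had one on a TSS, beside 46.6%. The gene without a promoter DHS was Gcsam. Their promoter scores ran from 41.0 to 282 with a median of 131. That median is the score of Il21r, from a DHS away from its own TSS, where the score was 43.0. At the 16 genes with a DHS on their own TSS, scores there ran from 35.6 to 282 with a median of 144. The death receptor gene Fas scored 43.7 and the transcription factor gene Mef2b 41.0, close to Sdc1 and S1pr2. At the other end, Ung, a uracil glycosylase gene of antibody gene diversification, scored 282, and the repressor gene Bach2 259.

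Of 20 plasma cell genes, 18 had a promoter DHS (90%, interval 68.3 to 98.8%), beside 57.0% of all protein-coding genes, and 18 had one on a TSS, beside 46.6%. Those without one were Jchain, the joining chain of secreted IgM and IgA, and Tnfrsf17, the receptor BCMA. Scores ran from 38.8 at Fkbp11 to 268 at Edem1 with a median of 130. The 38.8 of Fkbp11 is from a DHS away from its own TSS. Scores of DHS on the own TSS ran from 25.05 at Fkbp11 to 268 with a median of 130. Irf4, a transcription factor of plasma cell formation, scored 130, the elongation factor gene Ell2 123, the coactivator gene Pou2af1 214 and the surface receptor gene Slamf7 68.1. The chaperone genes Hspa5 and Dnajb9, of the secretory pathway in all cells, scored 233 and 242, close to the 217 of Xbp1. The list thus mixes genes that most cells use with genes of the plasma cell.

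All 10 transcription factor genes of B cells had a promoter DHS (interval 69.2 to 100%), beside 57.0% of all protein-coding genes, with a median score of 145. The top score, 446 at Ikzf3, belonged to a DHS on the TSS of its neighbour Zpbp2, and scores of DHS on the own TSS ran from 115 to 288 with a median of 140.0. Of 10 factors of the T lineage, 7 had one (70%, interval 34.8 to 93.3%), which is near the share of all genes, and 5 had one on a TSS, with promoter scores of 24.7 to 156 and a median of 86.0. That median is the score of Foxp3, from a DHS on the TSS of its neighbour 4930524L23Rik, and the 5 factors with a DHS on their own TSS scored 23.4 to 156 there with a median of 32.4. Bcl11b and Eomes were among the T lineage factors without one. The median of the 6 genes was 115. A DHS on a TSS wider than the upper quartile was found at 10 of 10 B cell factors, 9 of the 18 plasma cell genes with one, 5 of the 16 germinal centre genes with one and 2 of the 5 T lineage factors with one, beside 4 of the 6 genes and 25.0% of all. The median density of the windows was 10.4 DHS per 100 kb for the B cell factors, 7.57 for the plasma cell list, 6.57 for the germinal centre list, 5.39 for the 6 genes and 5.17 for the T lineage factors, beside 3.38 for all genes. Among the marker lists, median density was 11.7 for B cells, 5.98 for myeloid cells and 5.56 for T cells. For NK cell markers it was below the 3.38 of all genes. The myeloid markers and the T cell markers, none of the latter with a promoter DHS, thus lay above the 6 genes in density. With 1 library none of these differences between lists was tested.

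**Figure D4:**
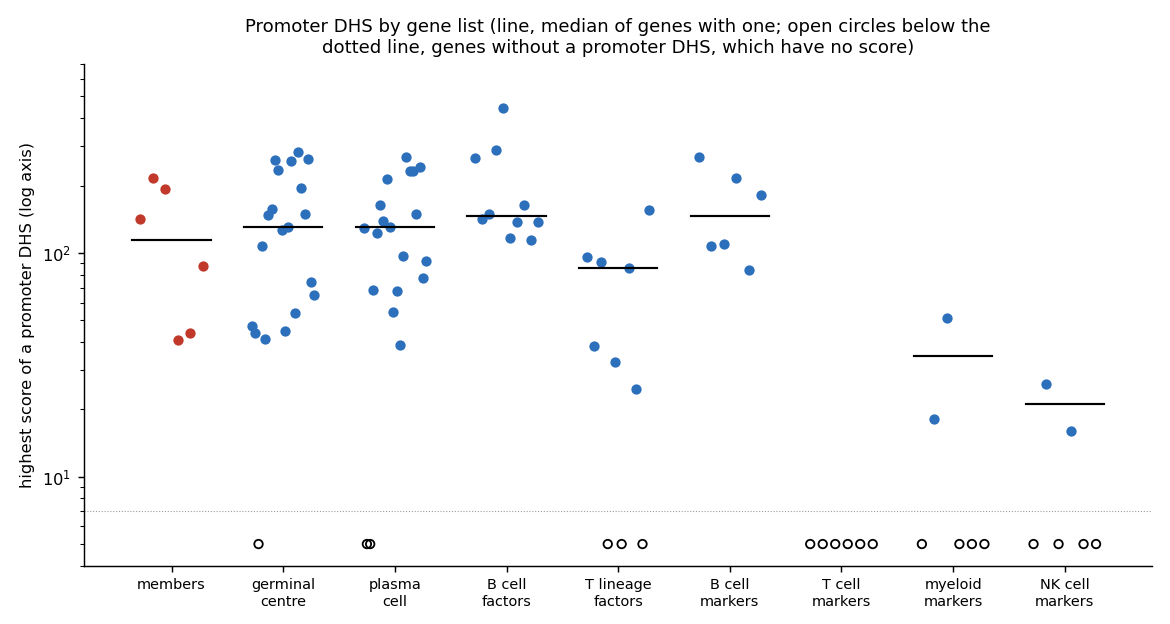
Highest score of a promoter DHS for each gene (vertical, log axis) by gene list (horizontal), with a line at the median of the genes that have one and open circles below the dotted line for genes without one. The 6 genes (labelled members, red) spread from 41.0 to 217, within the range of the plasma cell list, and the T cell markers are all without a promoter DHS.

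Words bound by factors of B cells were counted in the 300 bases at the centre of each DHS, on both strands. The E-box CAGGTG was in 11 of the 42 DHS (26.2%), beside 24.1% of all DHS, the STAT/Bcl6 word TTCNNNGAA in 6 (14.3%), beside 8.32%, and the PU.1 word GAGGAAGT in 2 (4.76%), beside 3.61%. The octamer ATGCAAAT (1.63% of all DHS), the Blimp-1 core GTGAAAG (4.64%), the CRE (0.680%), the XBP1 core TGACGTGG (0.449%), the ERSE (0.0253%), the composite ETS-IRF element EICE (GGAA and GAAA 2 bases apart, 3.58%), the interferon response element ISRE (GAAA and GAAA 2 bases apart, 3.96%) and a CTCF word (0.623%) were in none of the 42. Some of these words share letters: EICE and ISRE sites can overlap, as can ISRE sites and the Blimp-1 core, and the CRE and XBP1 core have their first letters in common. A match describes letters and not binding.

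Searched whole, 16 of the 42 DHS held the STAT/Bcl6 word (38.1%, beside 22.7% of all DHS), 11 the Blimp-1 core (26.2%, beside 13.5%) and 23 the E-box (54.8%, beside 50.6%), but wide DHS hold more letters, and those of the 6 genes were wide. Most of the STAT/Bcl6 matches lay in DHS of Prdm1 (15) and Bcl6 (11). In the 300 bases of each promoter, from 250 before to 50 after the most upstream coding TSS, the E-box was present at 4 of the 6 genes (Prdm1, Xbp1, Sdc1 and S1pr2), beside 19.8% of all promoters. The STAT/Bcl6 word was present at Bcl6 alone, beside 7.93%, and the CRE at S1pr2 alone (chr9:20781411-20781418), beside 2.35%. The XBP1 core was found once in the 42 DHS, in the one on the TSS of Sdc1 (chr12:8779656-8779663), beside 1.39% of all DHS searched whole.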

How the data were processed

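DNaseI-seq was analysed for 1 library, and the input library was not analysed on its own. The deposited list gives each peak a position, a name of the MACS caller and a score that the authors did not explain. The caller's version and settings for this library are not given in the sources used here. The submitters' processing notes name BWA 0.6.2, SAMtools and mm9. Starts were read as 0-based and are printed 1-based. Genes and TSSs came from GENCODE M1, sequence from the same build, and a promoter table on GRCm38 was left out. Statistics cover chromosomes 1 to 19 and X, where 47474 peaks lay. The median peak was 760 bp wide, and the lowest width was 334 bp.

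A promoter DHS overlapped 5 kb upstream to 2 kb downstream of any TSS of a gene by at least 1 bp, the window of the study. Gene lists held 89 different genes with the 6, all found, 5 through an older symbol. The genes and lists were chosen with earlier results of these data known. From a list, the genes lacking a promoter DHS (or, where most lack one, the genes that have it) are named if there are fewer than 6, and further examples given with a score were chosen after their values were seen. Some genes counted in the lists are not reported by name here. Intervals are exact binomial (Clopper-Pearson) at the 95% level and cover counting error only. Depth is unknown. Overlaps were checked against a direct search on simulated data. Alternatives were a score at or above the median, joining of peaks less than 500 bp apart, 1 kb around the TSS, peak centres, coding transcripts only, windows of 10 kb, 100 kb and the gene span, and assignment to the nearest TSS of a protein-coding gene (any of its transcripts). Python 3.11.15, numpy 2.4.6, pandas 2.3.3, scipy 1.17.1 and matplotlib 3.10.9 were used.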

Additional observations from a re-analysis of the deposited data

How the results depend on the processing

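The counts of 6 genes with a promoter DHS, with one on a TSS and with one in the gene body did not change under any alternative run on them. The number of DHS in the windows was set by the limits chosen. The 42 became 25 with peaks at or above the median score, 24 with 10 kb on either side, 84 with 100 kb and 14 in the gene spans, while merging gave 36, nearest TSS of a protein-coding gene 32 and peak centres 42. By gene, the median score left 3 DHS at Bcl6, 2 at Sdc1 and 5 at Prdm1, merging left 5 at Prdm1 in place of 8, and the nearest TSS left 1 at S1pr2 and 2 at Mzb1. The median promoter score of the 6 genes stayed at 115 under both alternatives run on it, which could not move it. The best promoter DHS of each gene covers its own TSS and scores 40.96 or more, above the median of 32.65. For the same reason the score limit and 1 kb around the TSS could not lower the counts of 6, nor could merging. Among the lists, the share of NK cell markers with a promoter DHS went from 33.3% to 0% at or above the median score, since both scores lay below it, and the other lists moved within their intervals. Word counts grew with the length searched, apart from the CTCF word, which was in 0 of the 42 either way. Depth is unknown, and with 1 library no spread between animals or digests could be had.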
